A study of Mus musculus with 12 samples.

Results

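The genes described here are the 9 core kinases and regulators of AKT and mTOR signalling: Akt1, Akt2, Pdpk1, Mtor, Rictor, Rptor, Tsc1, Tsc2 and Rheb. They were taken by gene symbol from a table of 26962 genes, by a rule that uses no value but was written with earlier results of these data known, and all 9 were found. The table holds 12 RNA-seq libraries of CD8 T cells whose receptors bind an Rpl18 tetramer, taken on day 10 of growth of an injected MC38 tumor (a colon carcinoma line from mouse). Cells were sorted from the tumor or from its draining lymph node (TDLN) in KO and in WT mice, which gives 4 groups of 3 libraries. KO mice carried a CD8-specific knockout of TrIP, the PI3K inhibitor encoded by Pik3ip1, and WT mice did not. All groups bore the MC38 tumor. The sources used here do not name the promoter that drove the deletion, the age of the mice or any pooling of animals.

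PI3K makes a membrane lipid that recruits AKT and the kinase PDK1, encoded by Pdpk1, so that PDK1 can phosphorylate AKT. The mTOR kinase works in mTORC1, defined by Raptor (Rptor), and in mTORC2, defined by Rictor, which also phosphorylates AKT. The GTPase Rheb activates mTORC1, the TSC1 and TSC2 proteins form a complex that switches Rheb off, and AKT in turn inhibits TSC2. In CD8 T cells this pathway governs growth, glycolysis and the balance of effector and memory cells, and TSC1 keeps naive T cells quiescent. It is controlled largely by phosphorylation and location of the proteins, which transcript levels do not measure.

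In the tumor, Rptor, Rictor and Rheb stood higher than in the TDLN in both genotypes, while the kinase genes Akt1, Akt2, Pdpk1 and Mtor did not pass the test in either. The stretches of 250 bases before the RefSeq starts of these 3 genes are shown because their transcripts moved in the same direction. They are from RefSeq on GRCm38.p6 and are written 5′ to 3′ on the strand of the gene. Capitals mark matches, on either strand, to the E-box CACGTG, the GC box GGGCGG or the NFAT core GGAAAA. The windows are chr11:119602655-119602904 on the plus strand for Rptor, chr15:6708131-6708380 on the plus strand for Rictor and chr5:24842362-24842611 on the minus strand for Rheb.
Rptor: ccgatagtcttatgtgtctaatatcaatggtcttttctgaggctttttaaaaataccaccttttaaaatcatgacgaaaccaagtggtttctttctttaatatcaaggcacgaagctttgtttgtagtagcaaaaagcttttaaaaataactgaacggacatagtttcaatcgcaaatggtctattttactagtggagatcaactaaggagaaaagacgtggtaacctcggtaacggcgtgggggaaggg
Rictor: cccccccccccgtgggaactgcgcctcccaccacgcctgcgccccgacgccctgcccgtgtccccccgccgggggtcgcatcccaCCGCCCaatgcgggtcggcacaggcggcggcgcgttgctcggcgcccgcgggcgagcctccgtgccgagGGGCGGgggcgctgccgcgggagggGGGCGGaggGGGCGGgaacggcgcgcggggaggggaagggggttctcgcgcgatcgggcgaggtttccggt
Rheb: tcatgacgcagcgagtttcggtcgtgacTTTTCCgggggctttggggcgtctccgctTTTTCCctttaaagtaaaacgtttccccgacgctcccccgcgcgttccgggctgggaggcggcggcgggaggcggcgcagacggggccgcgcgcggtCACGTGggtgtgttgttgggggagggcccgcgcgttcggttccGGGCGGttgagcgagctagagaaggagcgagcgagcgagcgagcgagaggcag
The 3 windows differ in base composition. The GC content was 37.6% before Rptor, 81.2% before Rictor and 68.0% before Rheb, against a median of 52.4% over 32851 promoter windows of the same length. They held 9, 40 and 37 CpG dinucleotides, against a median of 6. The Rictor window held 4 matches to the GC box, and the Rheb window held 1 GC box, 1 E-box and 2 NFAT cores. The Rptor window held no match to these motifs, nor to AP-1 (TGANTCA), CRE (TGACGTCA) or ETS (CCGGAAG). Of all windows, 32.7% held the GC box, 6.02% the E-box and 20.4% the NFAT core. AP-1 was present in 6.75%, CRE in 1.55% and ETS in 6.91%. None of these motifs was present in all 3 windows, and a match is a description of letters, not a measured binding site.

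Column totals of the table ranged from 22113970 to 24507186 normalized counts in the TDLN and from 25321838 to 26490590 in the tumor. The depth of a library was estimated at between 18.3 M and 36.9 M reads. All 9 genes passed the filter on low values. The transcript of the targeted gene, Pik3ip1, does not check the labels here, since the deleted exons are not known from the sources used and it was not lower in KO TDLN. Its range was 607.0 to 1095 normalized counts in WT TDLN and 854.2 to 1573 in KO TDLN, and 118.8 to 179.1 in WT tumor and 55.45 to 173.3 in KO tumor. CD8 T cell markers were present throughout, with Cd8a between 12566 and 37954 normalized counts. The 12 macrophage and monocyte markers summed to between 0.0462% and 0.224% of the column total in tumor libraries and between 0.00108% and 0.00291% in TDLN libraries. The complement gene C1qa, a macrophage marker, ranged from 0 to 0.8755 normalized counts in the TDLN and from 368.9 to 948.6 in the tumor. The 5 fibroblast markers reached 0.0191% to 0.128% in the tumor and at most 3.7e-05% in the TDLN. The 7 B cell markers lay at 0.0217% to 0.0424% in the TDLN and 0.00276% to 0.00961% in the tumor. The 8 markers of dividing cells lay at 0.159% to 0.225% in the TDLN and 0.0434% to 0.101% in the tumor. Their part in the tissue differences given here was not tested. Nothing in the labels states that libraries of a group came from separate mice, so p-values measure only the spread between these libraries, which may be technical.

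Per kilobase of exons, Rheb had the highest level of the 9 genes in every group, at a mean of 359 normalized counts per kb in WT TDLN, 362 in KO TDLN, 636 in WT tumor and 523 in KO tumor. Akt1 came next, at 230, 189, 187 and 189 in the same order. Rptor, Tsc1 and Tsc2 made up the low end in the TDLN, where Rptor lay at 12.8 in WT and 12 in KO, Tsc1 at 10.6 and 12.4, and Tsc2 at 20.7 and 15.0. The scaffold genes of the mTOR complexes thus sat on either side of their kinase in the TDLN, since Mtor lay at 28.5 in WT and 27.1 in KO and Rictor at 62.3 and 58.2. In WT TDLN the libraries of Pdpk1 and Akt2, and of Akt2 and Rictor, overlapped, and the other neighbours in the order did not. In KO TDLN the libraries of Akt2 and Rictor, and of Tsc1 and Rptor, overlapped. In the tumor more neighbours overlapped. Rheb stood clear of Akt1 there too, but Akt1, Rictor and Pdpk1 overlapped along the order in both genotypes, as did Mtor, Rptor, Tsc1 and Tsc2. Per kilobase of the longest transcript, Rheb and Akt1 kept their places, and several of the lower ranks exchanged.

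**Figure D1:**
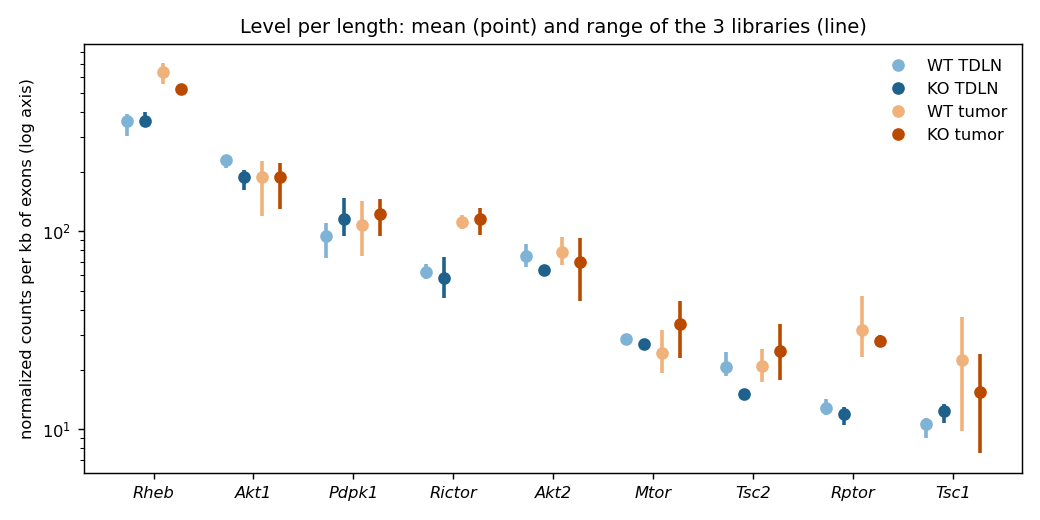
Level of each gene in normalized counts per kb of exons, on a log axis, with the mean of each group as a point and the range of its 3 libraries as a line. Rheb is highest in all 4 groups, from 359 per kb in WT TDLN to 636 in WT tumor, and the tumor points of Rptor and Rictor lie above their TDLN points.

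The comparison of tumor with TDLN within a genotype asks how libraries of tetramer-binding CD8 T cells differ between the tissues. In WT, 3 of the 9 genes rose in the tumor and none fell, where 15.9% of the 16065 genes tested rose and 10.9% fell by the same rule, a limma adjusted p under 0.05. In KO, again 3 of 9 rose and none fell, against 18.1% and 12.6% of all genes. The groups of 3 libraries did not overlap for 3 of 9 genes in WT and 4 of 9 in KO, against 39.8% and 50.2% of all genes. The median log2 difference of the 9 genes was 0.15 in WT and 0.26 in KO, beside 0.05 over all genes in each. The genes that rose encode the scaffolds that define the mTOR complexes and the GTPase that activates mTORC1. In these bulk libraries, fewer cells of a type and less RNA per cell cannot be told apart.

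**Figure D2:**
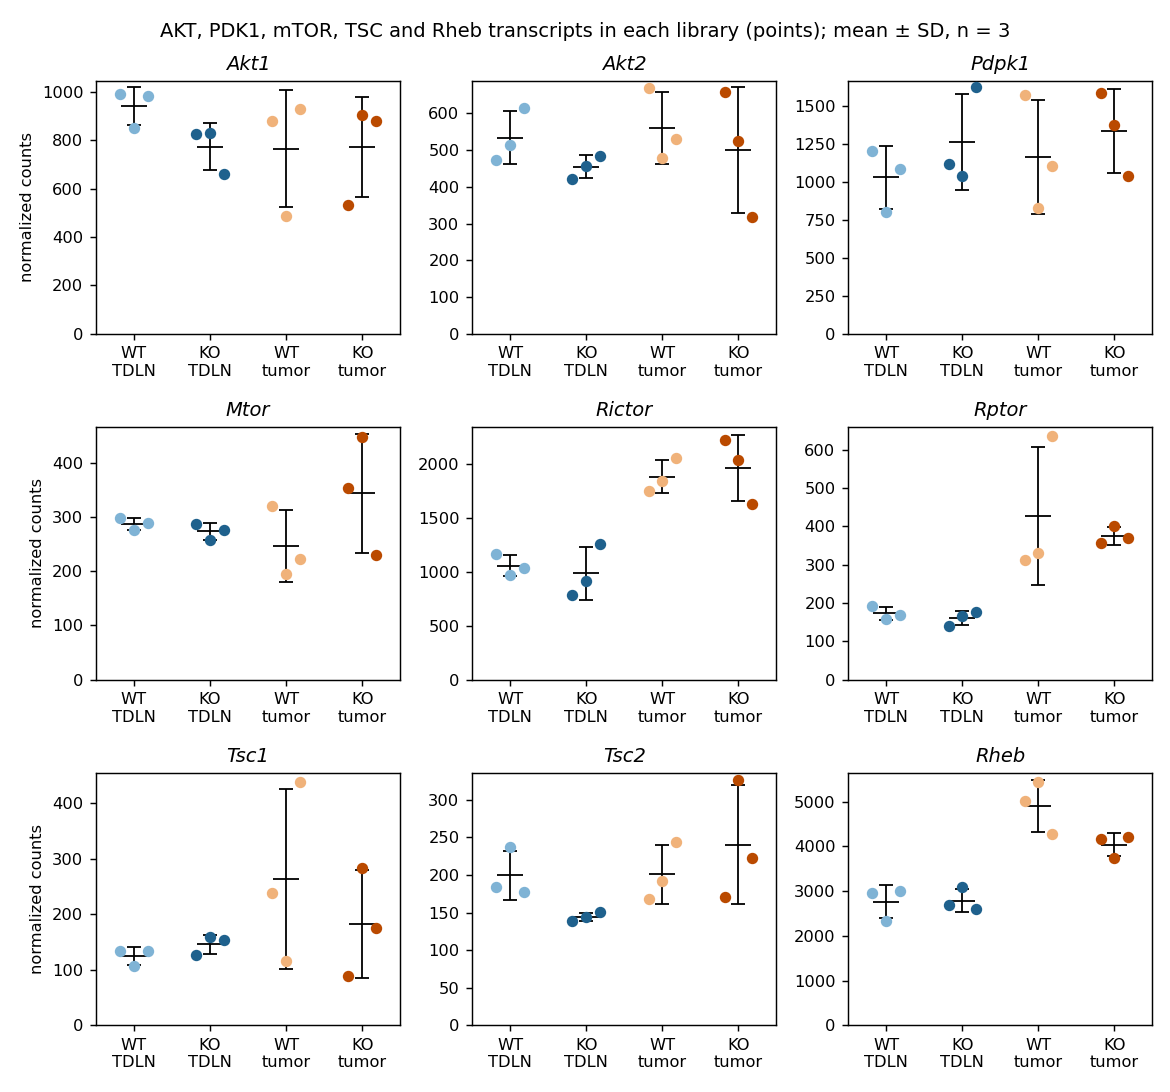
Normalized counts of each gene in each library (points), with the group mean and SD (n = 3), on axes that start at 0. For Rptor, Rictor and Rheb every tumor library lies above every TDLN library, while the tumor libraries of Tsc1 spread from 89.39 to 437.5.

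Rptor encodes Raptor, the scaffold that brings substrates to mTORC1. Its gene (ENSMUSG00000025583) lies on chromosome 11 from 119602905 to 119899576 on the plus strand in GRCm38. Rptor read 192.0, 158.5 and 168.1 normalized counts in WT TDLN replicates 1, 3 and 4, and 313.3, 332.0 and 635.5 in WT tumor replicates 1, 3 and 4. It read 140.8, 166.4 and 175.7 in KO TDLN replicates 1 to 3, and 355.7, 402.2 and 368.8 in KO tumor replicates 1 to 3. Every tumor library was above every TDLN library, and WT tumor replicate 4 stood well above the other tumor libraries. The group means were 172.8 ± 17.2 (SD, n = 3) in WT TDLN, 426.9 ± 180.9 in WT tumor, 161.0 ± 18.1 in KO TDLN and 375.6 ± 24.0 in KO tumor. Rptor rose by 1.13 on the log2(value + 24.9) scale in WT (SE 0.26, limma adjusted p = 0.00755), or 2.18-fold. In KO it rose by 1.11 (SE 0.26, limma adjusted p = 0.00729), or 2.16-fold. Without WT tumor replicate 4 the WT difference was 0.82, and Rptor passed the test in both genotypes with each library left out in turn. An antisense gene, Rptoros, overlaps the locus and read 0 to 12.19 normalized counts.

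Rictor encodes the scaffold that defines mTORC2, the complex that completes AKT phosphorylation. Its gene (ENSMUSG00000050310) lies on chromosome 15 from 6708379 to 6800401 on the plus strand. Rictor read 1161, 967.0 and 1034 normalized counts in WT TDLN and 1750, 1837 and 2055 in WT tumor, in the same order of replicates. In KO it read 782.2, 916.6 and 1260 in the TDLN and 2221, 2034 and 1626 in the tumor. The lowest tumor library, KO tumor replicate 3, was above the highest TDLN library, KO TDLN replicate 3. Means were 1053.9 ± 98.5 (SD, n = 3) in WT TDLN, 1880.5 ± 157.2 in WT tumor, 986.2 ± 246.3 in KO TDLN and 1960.3 ± 304.1 in KO tumor. Rictor rose by 0.82 on the log2 scale in WT (SE 0.20, limma adjusted p = 0.00931) and by 0.99 in KO (SE 0.20, limma adjusted p = 0.0029). These are 1.77-fold and 1.98-fold, and both calls were kept with each library left out in turn.

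Rheb encodes the small GTPase that activates mTORC1 on the lysosome. Its gene (ENSMUSG00000028945) lies on chromosome 5 from 24802823 to 24842624 on the minus strand. Rheb read 2952, 2342 and 3014 normalized counts in WT TDLN and 5010, 5436 and 4278 in WT tumor. KO libraries held 2696, 3085 and 2594 in the TDLN and 4161, 3750 and 4210 in the tumor. The 6 tumor libraries were above the 6 TDLN libraries, and the WT tumor libraries were above those of KO tumor. Rheb rose by 0.82 on the log2 scale in WT (SE 0.16, limma adjusted p = 0.00244), or 1.77-fold, and by 0.53 in KO (SE 0.16, limma adjusted p = 0.0224), or 1.45-fold. The KO call ended without KO TDLN replicate 1 (0.51, limma adjusted p = 0.0772) or KO TDLN replicate 3 (0.48, 0.0729), and likewise without KO tumor replicate 1 (0.51, 0.0706) or replicate 3 of that group (0.50, 0.0533). It also ended with a replicate block (0.53, limma adjusted p = 0.0551). The WT call was kept in each of these cases.

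The TSC genes, whose products form the complex that restrains Rheb, did not pass the test in either genotype. Tsc1 (ENSMUSG00000026812, chromosome 2) encodes the subunit that stabilizes TSC2. It read 133.4, 106.4 and 134.8 normalized counts in WT TDLN and 238.0, 115.4 and 437.5 in WT tumor. KO libraries held 126.9, 158.8 and 153.6 in the TDLN and 89.39, 282.9 and 174.7 in the tumor. The lowest tumor library of Tsc1 lay within the TDLN range in WT and below it in KO, the highest lay well above it, and the groups overlapped in both genotypes. Its log2 differences were 0.79 in WT (SE 0.42, limma adjusted p = 0.185) and 0.17 in KO (SE 0.42, limma adjusted p = 0.794). Without WT tumor replicate 3, the lowest of its group, Tsc1 passed in WT (1.23, limma adjusted p = 0.0324), and without replicate 4, the highest, its difference was 0.36 (limma adjusted p = 0.573).

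Tsc2 (ENSMUSG00000002496, chromosome 17) encodes the subunit that acts on Rheb and that AKT phosphorylates. It read 183.7, 236.9 and 177.8 normalized counts in WT TDLN and 167.5, 191.6 and 243.9 in WT tumor, and these groups overlapped. Among KO libraries it read 138.2, 143.9 and 150.1 in the TDLN and 171.0, 326.5 and 222.3 in the tumor, where the groups did not overlap. The log2 difference was 0.01 in WT (SE 0.26, limma adjusted p = 0.989) and 0.61 in KO (SE 0.26, limma adjusted p = 0.0917). With limma array weights the KO difference passed (0.61, limma adjusted p = 0.0418). It was 0.39 with quantile normalization (limma adjusted p = 0.263) and 0.38 without KO tumor replicate 2 (limma adjusted p = 0.314). The end of Tsc2 overlaps that of Pkd1 on the opposite strand, and the sources used here do not say whether the counting used strand.

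The kinase genes showed no call between tissues. Akt1 (ENSMUSG00000001729, chromosome 12), the most widely expressed AKT kinase, read 990.1, 851.6 and 982.3 normalized counts in WT TDLN and 879.0, 489.0 and 931.1 in WT tumor. In KO, Akt1 read 827.1, 832.2 and 661.6 in the TDLN and 534.5, 903.4 and 881.7 in the tumor. In each genotype 1 tumor library, WT replicate 3 or KO replicate 1, lay below all TDLN libraries and the others lay within the TDLN range in WT and above it in KO. The Akt1 differences were -0.34 in WT (SE 0.27, 95% interval -0.91 to 0.24) and -0.03 in KO (SE 0.27, interval -0.61 to 0.55), with limma adjusted p of 0.369 and 0.942.

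Akt2 (ENSMUSG00000004056, chromosome 7), the AKT kinase best known for insulin-driven glucose uptake, read 472.8, 514.4 and 614.6 normalized counts in WT TDLN and 668.8, 479.0 and 530.7 in WT tumor. In KO, Akt2 read 422.4, 456.6 and 483.9 in the TDLN and 656.7, 524.0 and 318.9 in the tumor. The groups overlapped in both genotypes, and the log2 differences were 0.06 in WT (SE 0.25, limma adjusted p = 0.879) and 0.08 in KO (SE 0.25, limma adjusted p = 0.841). A processed pseudogene, Akt2-ps, read 12.69 to 163.3 normalized counts, so some reads of Akt2 may have been split with it.

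Pdpk1 (ENSMUSG00000024122, chromosome 17), which encodes the AKT-activating kinase PDK1, read 1202, 800.4 and 1087 normalized counts in WT TDLN and 1568, 824.6 and 1103 in WT tumor. In KO it read 1119, 1039 and 1621 in the TDLN and 1584, 1374 and 1037 in the tumor. The groups overlapped, with log2 differences of 0.15 in WT and 0.09 in KO (SE 0.27 in each, limma adjusted p = 0.717 and 0.836). Mtor (ENSMUSG00000028991, chromosome 4), the kinase common to both complexes, read 298.0, 276.3 and 288.9 normalized counts in WT TDLN and 321.5, 194.3 and 223.5 in WT tumor. In KO, Mtor read 287.8, 257.3 and 276.5 in the TDLN and 353.9, 447.9 and 230.1 in the tumor. The TDLN libraries of Mtor lay close together and inside the range of the tumor libraries. Its log2 differences were -0.23 in WT and 0.26 in KO (SE 0.26 in each, limma adjusted p = 0.535 and 0.468).

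**Figure D3:**
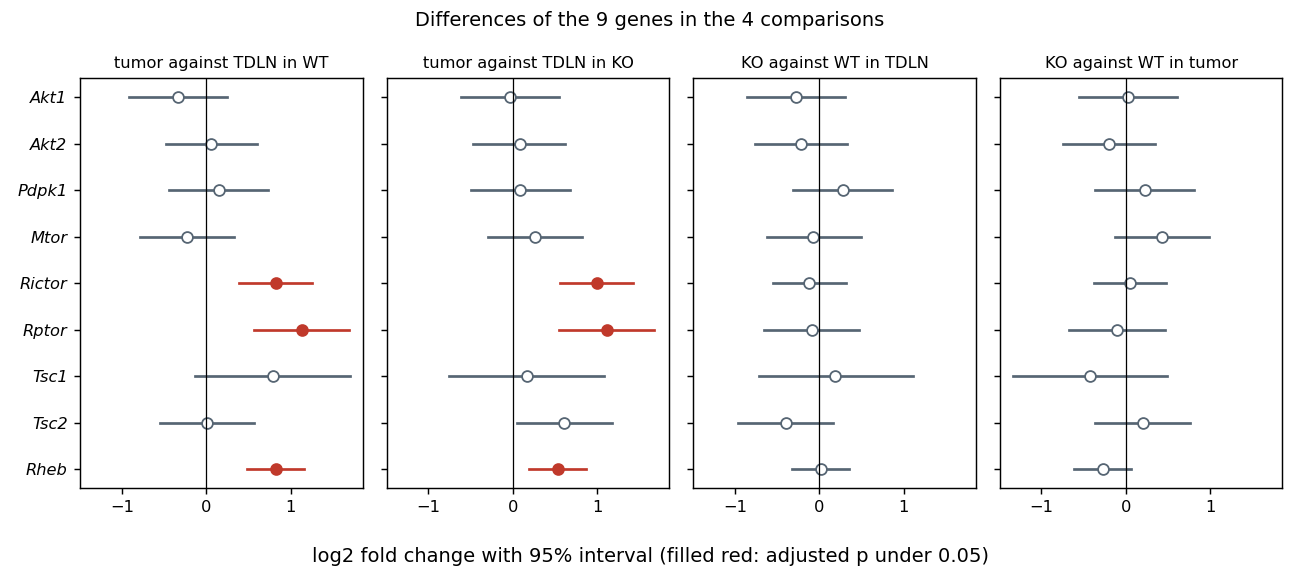
Log2 fold change of each gene in the 4 comparisons with its 95% interval, filled in red where the limma adjusted p was under 0.05. Only Rictor, Rptor and Rheb are filled, in both tissue comparisons, and no gene is filled in the genotype comparisons.

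Replicate spread differed between the tissues for most of the 9 genes. On the log2 scale, the residual SD within groups was 0.79 in the tumor and 0.15 in the TDLN for Tsc1, 0.46 and 0.15 for Akt1, and 0.40 and 0.06 for Mtor. For Rheb it was 0.14 and 0.17, for Rictor 0.18 and 0.26, and for Rptor 0.38 and 0.13. The median over all genes tested was 0.42 in the tumor and 0.27 in the TDLN. Of the genes that rose, Rictor and Rheb had a smaller tumor spread than Tsc1, Akt1 and Mtor, while that of Rptor was close to that of Mtor.

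Set against Mtor within each library and per length, the scaffolds stood higher in the tumor. Rptor to Mtor was 0.483, 0.430 and 0.437 in WT TDLN and 0.731, 1.28 and 2.13 in WT tumor. In KO it was 0.367, 0.485 and 0.477 in the TDLN and 0.754, 0.674 and 1.2 in the tumor, so that no tumor library overlapped a TDLN library. Rictor to Mtor was 2.33, 2.09 and 2.14 in WT TDLN, 3.25, 5.64 and 5.49 in WT tumor, 1.62, 2.13 and 2.72 in KO TDLN and 3.75, 2.71 and 4.22 in KO tumor. Here KO tumor replicate 2 fell just below KO TDLN replicate 3. These quotients were formed after the values were seen and were not tested.

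**Figure D4:**
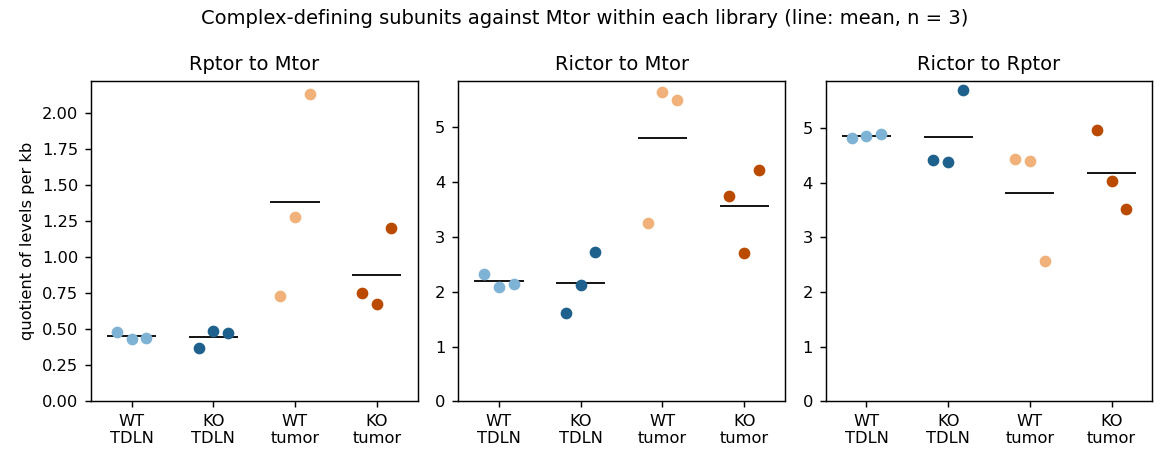
Quotients of levels per kb within each library (points) with the group mean (line). Rptor to Mtor is at most 0.485 in the TDLN and at least 0.674 in the tumor. Rictor to Rptor overlaps between the tissues in KO. In WT it does not, with at least 4.81 in the TDLN and at most 4.44 in the tumor.

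The balance between partner genes was tested as a log2 ratio within each library, with an exact two-sided permutation test of 400 arrangements within the other factor, whose smallest p is 0.005. Rictor to Rptor, a comparison of the mTORC2 with the mTORC1 scaffold, was -0.31 in tumor against TDLN (exact permutation p = 0.08, adjusted over 6 tests 0.48). Without KO tumor replicate 1 it was -0.37, with an adjusted exact permutation p of 0.03. Tsc1 to Tsc2 differed by 0.18 (exact permutation p = 0.61, adjusted 0.924) and Akt1 to Akt2 by -0.26 (exact permutation p = 0.395, adjusted 0.924). Between genotypes the same ratios differed by 0.07, -0.01 and 0.09, with adjusted exact permutation p of 0.924, 0.985 and 0.924. No ratio passed over all 12 libraries.

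The comparison of KO with WT within a tissue asks whether the labelled loss of TrIP, which acts on PI3K upstream of AKT, went with other levels of these genes. By limma, 0 of the 9 genes passed in the tumor and 0 in the TDLN, where 0% of the 16065 genes passed in each. At an unadjusted p under 0.05 the counts were again 0 of 9 and 0 of 9, against 6.25% of all genes in the tumor and 0.766% in the TDLN. These tests used a spread per gene pooled over both tissues, so the shares of the tissues cannot be compared directly. The groups did not overlap for 1 of 9 genes in the tumor and 2 of 9 in the TDLN, against 7.48% and 6.35% of all genes. In the tumor this was Rheb, whose 3 KO libraries were below the 3 WT libraries (difference -0.27, SE 0.16, limma adjusted p = 0.803). In the TDLN it was Akt1 (-0.28, SE 0.27) and Tsc2 (-0.40, SE 0.26), each lower in the 3 KO libraries, with a limma adjusted p of 1. Tsc2 read 138.2 to 150.1 normalized counts in KO TDLN and 177.8 to 236.9 in WT TDLN.

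The intervals of the genotype differences rest on a spread per gene that the model pooled over tumor and TDLN libraries. Within groups, the residual SD was 0.40 in the tumor and 0.06 in the TDLN for Mtor, and 0.46 and 0.15 for Akt1. Only Rictor and Rheb had the larger SD in the TDLN, at 0.26 against 0.18 and 0.17 against 0.14. Where the SDs differ, a pooled interval tends to be too wide in the tighter tissue and too narrow in the other. Fitted to the compared groups alone, 0 of these genes passed in either tissue. In the tumor, Mtor differed by 0.43 (95% interval -0.13 to 0.98) and Tsc1 by -0.43 (-1.34 to 0.49). Rictor differed by 0.05 (-0.38 to 0.48), Rptor by -0.11 (-0.67 to 0.46), Akt1 by 0.03 (-0.55 to 0.60) and Akt2 by -0.20 (-0.74 to 0.34). Pdpk1 differed by 0.22 (-0.37 to 0.80) and Tsc2 by 0.20 (-0.36 to 0.76). In the TDLN, Rheb differed by 0.02 (-0.32 to 0.35), Rictor by -0.12 (-0.55 to 0.31), Rptor by -0.09 (-0.65 to 0.47) and Mtor by -0.07 (-0.62 to 0.49). Akt2 differed by -0.22 (-0.76 to 0.33), Pdpk1 by 0.28 (-0.31 to 0.86) and Tsc1 by 0.19 (-0.72 to 1.11) there. Every interval spanned 0, and for Rheb in the TDLN, with the smallest SE, a difference beyond 1.28-fold lay outside it.

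The interaction, the genotype difference in the tumor minus that in the TDLN, tests whether the tissue difference depended on the labelled genotype. By limma 0 of the 9 genes passed, as did 0% of all genes, and at an unadjusted p under 0.05 it was 0 of 9 against 2.89% of all genes. The largest values were -0.62 for Tsc1 (SE 0.60), 0.60 for Tsc2 (SE 0.36) and 0.49 for Mtor (SE 0.36). For the genes that rose in the tumor it was 0.17 for Rictor (95% interval -0.44 to 0.77), -0.02 for Rptor (-0.81 to 0.78) and -0.29 for Rheb (-0.77 to 0.19). The larger Tsc2 difference in KO, and the smaller rise of Rheb in KO, are therefore not shown to differ between the genotypes.

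Among other genes of the pathway, taken from 8 lists, 92 were tested. In WT, 14 of 92 rose in the tumor (15.2%) and 10 fell (10.9%), against 15.9% and 10.9% of all genes, and in KO 18 rose (19.6%) and 10 fell (10.9%), against 18.1% and 12.6%. These shares are near the background. In the genotype comparisons and the interaction 0 of 92 passed by limma. In both genotypes 18 genes passed in the same direction, 13 higher and 5 lower, which is 19.6% of the 92 beside 20.3% of all genes. With each library left out in turn 9 of the 18 kept both calls, or 50%, beside 53.9% of all genes called in both, so these counts too are near the background. These 9 were Phlpp1, Fnip1, Flcn, Bmt2, Grb10, Hif1a, Ndrg1 and Prkca, which were higher, and Prkag1, which was lower. The others, Prr5, Inppl1, Inpp5d, Ppp2r5a, Nprl2, Ddit4, Prkab2, Eif4ebp1 and Sgk3, lost at least 1 call without at least 1 library. Prr5 and Ddit4 are described below. Sgk3 differed by -1.74 in WT and -1.41 in KO, Ppp2r5a by -0.68 and -0.94, and Nprl2 by -0.75 and -0.99. Inppl1 differed by 1.17 and 1.94, Inpp5d by 0.75 and 0.95, Prkab2 by 1.04 and 1.02, and Eif4ebp1 by 1.61 and 1.78.

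**Figure D5:**
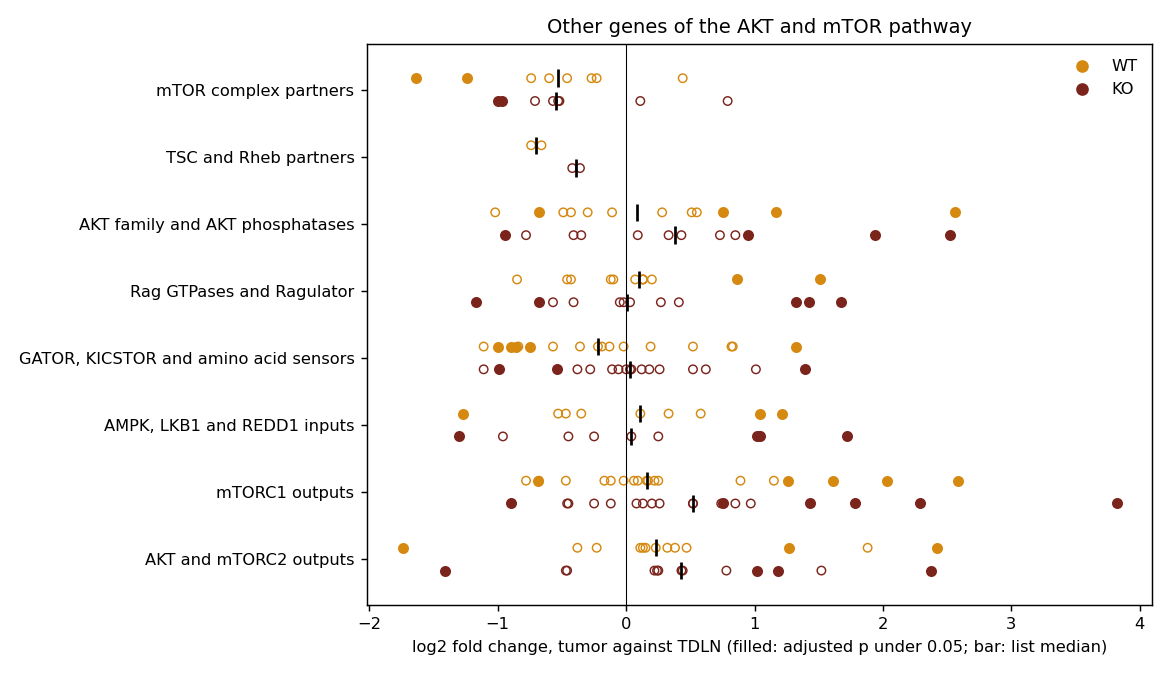
Log2 fold change of tumor against TDLN for the other pathway genes by list, in WT and in KO, filled where the limma adjusted p was under 0.05, with the list median as a bar. The partners of the mTOR complexes have medians of -0.53 and -0.55, and rises above 2 on the log2 scale are found among the AKT phosphatases, the mTORC1 outputs and the outputs of AKT and mTORC2.

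Of 8 tested partners of the mTOR complexes, none rose and 2 fell in each genotype, a share of 25% beside 10.9% of all genes in WT and 12.6% in KO. The list median was -0.53 in WT and -0.55 in KO, beside 0.05 over all genes in each. The genes that fell were Prr5 and Telo2 in WT and Prr5 and Tti1 in KO, of which Telo2 and Tti1, assembly factors of mTOR, are named after their values were seen. Telo2 differed by -1.24 in WT (SE 0.42, limma adjusted p = 0.0472) and kept the call only without each of the 3 KO tumor libraries, losing it in the other 9 of 12 cases. In KO, Tti1 differed by -0.97 (SE 0.26, limma adjusted p = 0.0144) and lost the call without KO TDLN replicate 1 (-0.93, 0.0565), KO TDLN replicate 2 (-0.93, 0.0528) or KO tumor replicate 1 (-0.88, 0.0545). Prr5, which encodes the mTORC2 subunit Protor-1, read 58.6 to 77.05 normalized counts in WT TDLN and was listed at 0 in 2 WT tumor libraries and at 14.34 in the other. In KO it read 37.45 to 76.65 in the TDLN and 8.209 to 22.18 in the tumor. The Prr5 difference in WT was -1.64 (SE 0.31, limma adjusted p = 0.00229). In KO it was -1.0 (SE 0.31, limma adjusted p = 0.0277), a call that ended without KO TDLN replicate 1 (-1.02, adjusted 0.0746) or KO TDLN replicate 2 (-0.82, 0.115), and likewise without KO tumor replicate 1 (-0.88, 0.094) or replicate 2 of that group (-0.99, 0.0641). The partners of TSC and Rheb, Tbc1d7 and Rhebl1, did not pass in either genotype in the main fit. Tbc1d7, the third subunit of the TSC complex, differed by -0.74 in WT (SE 0.29, limma adjusted p = 0.0793) and -0.36 in KO (SE 0.29, limma adjusted p = 0.369). It passed in WT without WT tumor replicate 1 (-0.97, limma adjusted p = 0.0388).

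In the list of the AKT family and AKT phosphatases, 3 of 12 rose (25%) and 1 fell (8.33%) in each genotype. Of all genes, 15.9% rose and 10.9% fell in WT, and 18.1% and 12.6% in KO. Phlpp1, which encodes a phosphatase that removes the mTORC2 phosphate from AKT, read 91.93 to 150.5 normalized counts in WT TDLN and 661.5, 624.5 and 1462 in WT tumor. In KO it read 80.65 to 146.7 in the TDLN and 1180, 701.6 and 511.6 in the tumor, with no overlap. Phlpp1 rose by 2.56 in WT (SE 0.37, limma adjusted p = 4.4e-04) and by 2.52 in KO (SE 0.37, limma adjusted p = 4.3e-04).

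Of the Rag GTPase and Ragulator list, 2 of 12 rose in WT (16.7%) and none fell, beside 15.9% and 10.9% of all genes. KO had 3 higher (25%) and 2 lower (16.7%), beside 18.1% and 12.6% of all genes. Flcn and Fnip1 of this list encode folliculin and its partner, which together act on Rag GTPases at the lysosome. Fnip1 read 450.0 to 764.8 normalized counts over the 6 TDLN libraries and 1297 to 2931 over the 6 tumor libraries, and rose by 1.51 in WT and 1.67 in KO (SE 0.28 in each, limma adjusted p = 0.00229 and 0.00106). Flcn read 185.3 to 296.8 in the TDLN and 380.0 to 893.9 in the tumor, and rose by 0.86 and 1.32 (SE 0.22 in each, limma adjusted p = 0.0112 and 8.3e-04). In the list of GATOR, KICSTOR and amino acid sensors, 1 of 17 rose (5.88%) and 4 fell (23.5%) in WT. KO had 1 higher (5.88%) and 2 lower (11.8%), with the same shares of all genes as background. Bmt2, which encodes the methionine-linked sensor SAMTOR, read 376.5 to 755.7 in the TDLN and 1080 to 1729 in the tumor. It rose by 1.32 in WT and 1.39 in KO (SE 0.27 in each, limma adjusted p = 0.0037 and 0.00249).

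The AMPK, LKB1 and REDD1 inputs restrain mTORC1 under energy or oxygen stress. Of this list, 2 of 9 rose (22.2%) and 1 fell (11.1%) in WT, while KO had 3 higher (33.3%) and 1 lower (11.1%). Of all genes, 15.9% rose and 10.9% fell in WT, and 18.1% and 12.6% in KO. Prkag1, a regulatory subunit of AMPK, read 1221 to 1537 normalized counts over the TDLN libraries and 467.5 to 702.7 over the tumor libraries, a fall in both genotypes. Its differences were -1.27 in WT and -1.30 in KO (SE 0.19 in each, limma adjusted p = 5.3e-04 and 3.9e-04). Ddit4, which encodes the hypoxia-induced mTORC1 inhibitor REDD1, read 54.28 to 146.9 in the TDLN and 170.6 to 499.9 in the tumor. Its difference was 1.21 in WT (SE 0.32, limma adjusted p = 0.0154) and 1.72 in KO (SE 0.32, limma adjusted p = 0.00203). The WT call of Ddit4 ended without WT TDLN replicate 4 (0.94, limma adjusted p = 0.0717) or WT tumor replicate 1 (1.01, 0.0555).

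Of 19 mTORC1 outputs, 4 were higher (21.1%) and 1 lower (5.26%) in the WT tumor, beside 15.9% and 10.9% of all genes. In the KO tumor 5 were higher (26.3%) and 1 lower (5.26%), beside 18.1% and 12.6%. The list medians were 0.16 in WT and 0.52 in KO, beside 0.05 over all genes in each. Hif1a, the oxygen-regulated transcription factor whose translation mTORC1 promotes, read 2523 to 4111 normalized counts in the TDLN libraries and 11040 to 28264 in the tumor libraries. It rose by 2.58 in WT (SE 0.31, limma adjusted p = 1.0e-04) and 2.29 in KO (SE 0.31, limma adjusted p = 2.1e-04). Grb10, an adaptor that mTORC1 phosphorylates and that dampens insulin receptor signalling, was listed at 0 in all 6 TDLN libraries. It read 139.1, 39.44 and 74.15 in WT tumor and 291.0, 208.1 and 562.8 in KO tumor. The macrophage and fibroblast markers given above were likewise near 0 in the TDLN and present in the tumor, and their part in the Grb10 values was not tested.

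Of 13 outputs of AKT and mTORC2, 2 were higher (15.4%) and 1 lower (7.69%) in the WT tumor, beside 15.9% and 10.9% of all genes. In the KO tumor 3 were higher (23.1%) and 1 lower (7.69%), beside 18.1% and 12.6%. The list medians were 0.23 in WT and 0.43 in KO, beside 0.05 over all genes in each. Ndrg1, whose protein is phosphorylated by the mTORC2-dependent kinase SGK1 and whose transcript is induced by hypoxia, read 68.26 to 111.7 normalized counts in the TDLN and 408.6 to 836.1 in the tumor. It rose by 2.42 in WT and 2.37 in KO (SE 0.29 in each, limma adjusted p = 1.2e-04 in both). Prkca encodes a protein kinase C that mTORC2 stabilizes. It read 434.4 to 663.9 in the TDLN and 798.6 to 1896 in the tumor, and rose by 1.27 and 1.18 (SE 0.28 in each, limma adjusted p = 0.00616 and 0.00822).

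Across the 12 libraries, the genes whose log2 pattern lay nearest to that of Rptor were Apc and Cdk12, at a root mean square distance of 0.19, and Tgoln1 at 0.20, out of 10983 genes compared with a median distance of 0.73. Nearest to Rictor were Rab5a at 0.13 and Ube2b and Kansl1 at 0.14, against a median of 0.66. Among the 9 genes, Rictor and Rptor lay 0.25 apart, Rictor and Rheb 0.29, and Rptor and Rheb 0.39. Pairs of genes that did not pass lay about as close. Pdpk1 and Mtor were 0.26 apart, Akt2 and Mtor 0.29, and Akt2 and Pdpk1 0.32. Mtor lay 0.37 from Akt1 and from Tsc2, and Akt1 and Tsc2 were 0.38 apart. The widest pair was Akt1 and Rptor, at 0.71.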

How the data were processed

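The authors deposited one table of normalized counts, a signal value per gene and library, with 1 column for each of 12 libraries; the name the authors gave it calls it normalized counts from Partek. Per the labels' protocols, polyA RNA was prepared with a stranded Illumina kit. GRCm38 and GRCm39 appear in the submitters' processing notes with no role stated. The aligner and the counting tool are not given in the sources consulted. Of values under 50 reads, 87.0% to 89.6% per library were whole reads within 0.01 reads and the rest were fractions, so no model for whole counts was used.

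The 16065 genes that averaged 1 CPM or more were kept, and 1 CPM, 24.9 normalized counts, was added before log2, which understates the change of low genes. One limma model (limma 3.58.1, R 4.3.3) with a mean per group and an intensity trend was fitted to all 12 libraries, with 8 residual and 4.47 prior degrees of freedom. P-values were two-sided and adjusted by Benjamini and Hochberg over all genes within each comparison, with a threshold of 0.05, and 95% intervals used the quantile 2.17. The model's code was tested on simulated data, where the required recovery of 4-fold changes was dropped for the interaction after it was narrowly missed there. Ratios, promoters and figures used scipy 1.17.1, matplotlib 3.10.9, pandas 2.3.3 and numpy 2.4.6 under Python 3.11.15.

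The 9 genes and the 8 lists were chosen with earlier results of these data known. The rule for other named genes takes up to 4 genes per list that passed in both tissue comparisons in 1 direction, with values alone where a list had none, and the 3 genes nearest in pattern to each of the 2 of the 9 genes with the largest tissue differences. Of 96 listed symbols 95 were found. Coordinates and lengths come from GENCODE M21 on GRCm38. It holds 26520 of the 26962 gene IDs but the same gene version for only 34, so it is not the annotation behind the table. Alternatives were other scalings, pseudocounts, filters, sample weights, no trend, only the compared groups, a replicate block, and leaving out each library.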

Additional observations from a re-analysis of the deposited data

How the results depend on the processing

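The rises of Rptor and Rictor kept their calls in both genotypes, and that of Rheb in WT, under 10 other settings and with each of 12 libraries left out. The count of the 9 genes called stayed at 3 in WT under the 10 settings and was 2 to 4 in KO. With a library left out it was 3 to 4 in WT and 2 to 3 in KO, and 0 in the genotype comparisons and the interaction throughout. Differences near 0 changed sign. In KO against WT in the tumor, array weights gave -0.14 for Akt1 and 0.02 for Rptor. In the TDLN, Rheb gave -0.04 with columns scaled to a common total and -0.04 with array weights. In tumor against TDLN in WT, a common total gave -0.11 for Akt2, -0.02 for Pdpk1 and -0.15 for Tsc2, and quantile normalization -0.10 for Tsc2. In KO, quantile normalization gave -0.02 for Akt2 and -0.12 for Tsc1. In the interaction, a common total gave 0.03 for Pdpk1 and 0.07 for Rptor, quantile normalization -0.06 for Akt2, and array weights 0.03 for Pdpk1 and 0.16 for Rptor. Every tumor column had a larger total than every TDLN column, so scaling to a common total lowers tumor values relative to TDLN values. Beyond this scaling, the cause of these changes was not tested.

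With 1 library left out, the sign also changed within these ranges. In KO against WT in the tumor they were -0.26 to 0.27 for Akt1, -0.41 to 0.08 for Akt2, -0.00 to 0.45 for Pdpk1, -0.04 to 0.18 for Rictor, -0.28 to 0.20 for Rptor and -0.02 to 0.40 for Tsc2. In the TDLN they were -0.30 to 0.03 for Rictor and -0.10 to 0.08 for Rheb. In tumor against TDLN in WT they were -0.07 to 0.16 for Akt2, -0.09 to 0.37 for Pdpk1 and -0.13 to 0.12 for Tsc2. In KO they were -0.16 to 0.21 for Akt1, -0.14 to 0.35 for Akt2, -0.05 to 0.28 for Pdpk1 and -0.18 to 0.54 for Tsc1. In the interaction they were -0.20 to 0.29 for Akt2, -0.28 to 0.17 for Pdpk1 and -0.19 to 0.29 for Rptor. Ratios between genotypes ran from -0.06 to 0.14 for Rictor to Rptor, -0.24 to 0.15 for Tsc1 to Tsc2 and -0.11 to 0.33 for Akt1 to Akt2. Between tissues they ran from -0.37 to -0.18 for Rictor to Rptor, 0.02 to 0.42 for Tsc1 to Tsc2 and -0.46 to -0.02 for Akt1 to Akt2.

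Libraries of a genotype share replicate numbers between tissues, and both WT tissues use the numbers 1, 3 and 4. No label says that a number is a mouse, so libraries were treated as unpaired. Deviations of same-numbered libraries correlated at 0.01, 0.20 and -0.04 in WT and -0.02, 0.04 and 0.00 in KO. With different numbers, the lowest and highest correlations were -0.18 and 0.18 for WT, and -0.06 and 0.06 for KO. Deviations in groups of 3 are tied by their group mean, so these correlations cannot decide whether the numbers pair the samples. For KO against WT the replicate block joined WT and KO libraries of the same number, which come from different mice, so it is no check of pairing. With it, Rptor gave 0.01 in KO against WT in the tumor and 0.02 in the TDLN, and Rheb gave -0.01 in the TDLN. Between tissues the block was genotype with replicate number. It ended the KO tissue call of Rheb (0.53, limma adjusted p = 0.0551) and no other call of the 9 genes. The lowest estimated number of reads among the 9 genes was 98, for Tsc1 in KO tumor replicate 1. The part of depth in the spread of Tsc1 was not tested.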
